A study of Homo sapiens with 2 samples.

Results

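Isolated CpGs are CG dinucleotides that stand alone in the DNA sequence. Here a CpG was called isolated where it lay on chromosomes 1 to 22, had at least 5 reads in both whole-genome bisulfite libraries, and had no other position listed in either library within 150 bp. This rule held for 39114 of the 1273762 CpGs with 5 reads in both libraries, which is 3.07%. They were set against 305405 CpGs with 1 to 3 listed neighbours within the same distance and 384324 with 10 or more, which are called crowded below. The rule used position and depth and did not use the methylation level.

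The libraries came from HEK293T, a human embryonic kidney cell line. One library was labelled Neg, which the study describes as cells that were not transduced. The other was labelled dCas9+3A+HOXA5, for cells sorted by fluorescence that had received 3 constructs by lentivirus. These were a nuclease-dead Cas9 with the SunTag repeat of peptides, DNMT3A1 (an isoform of the methyltransferase DNMT3A) on an scFv that recognises the repeat, and a guide to HOXA5. The labels attach the same treatment text, with collection at 30 days, to both samples, so only the title separates them. Each group held 1 library, so there is no replicate error, and every test below compares these 2 libraries and not the conditions.

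Methylated cytosines in CpGs deaminate to thymine over evolutionary time, which has left most of the genome poor in CpGs and rich in TG and CA. After DNA replication the maintenance enzyme DNMT1 copies methylation onto the new strand, while DNMT3A and DNMT3B can methylate CpGs that carry no mark. Solitary CpGs with A or T on both sides are known to lose methylation as cultured cells divide, mostly in late-replicating partially methylated domains, whereas dense CpGs at gene starts are usually kept unmethylated.

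The sequences show examples of such neighbourhoods on the plus strand of GRCh37, which has the coordinates of hg19, with every CG in capitals. The first is the deepest example with C or G on both sides of the CpG, a context in which levels were high, and the other is among the members farthest from any other listed CpG.
C or G on both sides, chr13:62742219-62742518: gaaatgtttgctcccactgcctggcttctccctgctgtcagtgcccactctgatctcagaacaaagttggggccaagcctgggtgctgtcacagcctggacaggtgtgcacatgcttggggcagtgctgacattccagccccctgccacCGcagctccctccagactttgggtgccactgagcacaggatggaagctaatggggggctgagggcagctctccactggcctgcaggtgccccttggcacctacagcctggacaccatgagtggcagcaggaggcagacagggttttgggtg
Far from other CpGs, between genes, chr4:125407649-125407948: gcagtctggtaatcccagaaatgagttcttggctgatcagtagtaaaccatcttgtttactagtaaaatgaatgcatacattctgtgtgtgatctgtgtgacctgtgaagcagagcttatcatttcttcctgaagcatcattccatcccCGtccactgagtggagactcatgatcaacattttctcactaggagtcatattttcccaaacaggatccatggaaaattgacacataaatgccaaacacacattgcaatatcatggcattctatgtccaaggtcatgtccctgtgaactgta
Both windows of 300 bases held a single CG. Their GC content was 61.0% and 41.0%, while it averaged 41.9% around the members, so the first window is unusually rich in GC. At the first, which lay between genes, 25 of 28 reads were methylated in Neg and 36 of 39 in dCas9+3A+HOXA5. The CpG on chromosome 4 had its nearest listed neighbour 1610 bp away and was methylated in 5 of 5 and 7 of 7 reads. Its Neg count corrected for variants was 3.75 for the 5 reads. A further CpG on chromosome 4, 1596 bp from its nearest neighbour, went from 0 of 7 to 2 of 5 reads. None of these 3 differences passed the test (Fisher's exact test, lowest unadjusted p = 0.152).

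Depth limited which isolated CpGs could be measured. The Neg library listed 22577702 CpGs on chromosomes 1 to 22 with a mean of 3.81 reads, and the dCas9+3A+HOXA5 library 15475692 with a mean of 2.90. Of 1916589 listed isolated CpGs, 2.04% reached 5 reads in both libraries, against 7.44% of the crowded CpGs, and the GC content around listed isolated CpGs averaged 38.1% against 61.7%. The members are therefore a small, depth-selected share, with a median of 6 reads in each library, and chromosome 1 alone gave 7109 of them, chromosome 6 3422 and chromosome 13 2835. The median distance to the nearest listed CpG was 209 bp, and 36495 members (93.3%) had no other CG of the reference within 150 bp either. In the 301 bases around the members, a window that the rule largely empties of other CpGs, the CG dinucleotide occurred at 0.0816 of the number given by base composition. TG and CA together occurred at 1.25 times that number, against 1.26 around CpGs with 1 to 3 neighbours and 1.16 around 40000 crowded CpGs.

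As means over CpGs, isolated CpGs were less methylated in Neg than CpGs with 1 to 3 neighbours or crowded CpGs, and gained more in dCas9+3A+HOXA5. Their mean level was 58.3% (SD 36.8 over CpGs, n = 39114) in Neg and 69.8% (SD 37.3) in dCas9+3A+HOXA5, which differ by 11.5 points (95% interval over CpGs 11.2 to 11.8). CpGs with 1 to 3 neighbours went from 66.7% to 74.4%, and crowded CpGs from 66.8% to 69.0%. The change of isolated CpGs exceeded that of CpGs with 1 to 3 neighbours by 3.74 points (3.41 to 4.08) and that of crowded CpGs by 9.30 points (8.98 to 9.62). These intervals treat CpGs as independent and cover the sampling of CpGs and reads in these 2 libraries, not differences between cultures. This mean level starts lower in isolated CpGs, so the unmethylated remainder was also compared. As a mean over CpGs it shrank to 0.724 of its Neg size in isolated CpGs, 0.767 with 1 to 3 neighbours and 0.933 in crowded CpGs. Summed over reads, 57.5% (95% Wilson interval 57.3 to 57.7) of reads at isolated CpGs were methylated in Neg and 69.5% (69.3 to 69.7) in dCas9+3A+HOXA5, an increase of 12.0 points. For crowded CpGs the same sum went from 58.2% in Neg to 65.4%, so by reads the Neg levels of isolated and crowded CpGs lay close together. This rise of 7.17 points was more than the change of crowded CpGs as a mean over CpGs. The distance between the changes of the classes thus fell to 4.87 points when deep CpGs counted by their reads. The unmethylated remainder of crowded CpGs also shrank by a larger share over reads than over CpGs. Sums over reads weight each CpG by its own depth in each library, so they do not give the change of a typical CpG.

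As a mean over CpGs, the change fell with the number of neighbours. From 0 to 3 neighbours it was 11.5, 9.55, 7.93 and 6.35 points, it was 3.27 points with 10 to 14 neighbours, and with 30 or more it was -0.256 points. Summed over reads it was 12.0, 10.2, 8.78 and 7.23 points from 0 to 3 neighbours, but 9.20 with 4 to 6 and 10.2 with 10 to 14 before -0.699 with 30 or more, so over reads the decline was broken in the middle. The Neg level did not run in one direction. It climbed from 58.3% without neighbours to 76.6% with 7 to 9 and then declined to 33.9% with 30 or more, so isolated CpGs shared a reduced level with the densest CpGs but not their change.

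**Figure D1:**
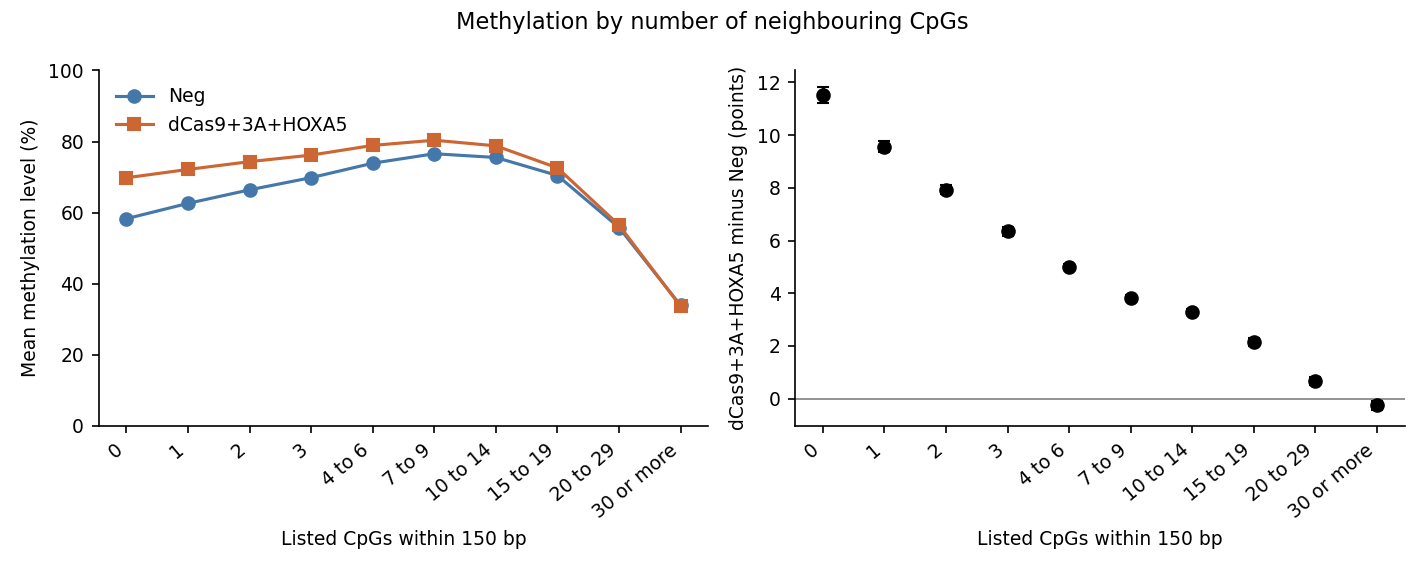
Mean methylation level of CpGs in percent (left, circles for Neg and squares for dCas9+3A+HOXA5) and the difference between the libraries in percentage points (right, bars are 95% intervals over CpGs) by number of listed CpGs within 150 bp. As a mean over CpGs the difference declines from 11.5 points without a neighbour to -0.256 points with 30 or more. Summed over reads, which weights CpGs by their depth in each library, the difference is 10.2 points with 10 to 14. The levels peak at 7 to 9 neighbours.

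Among the isolated CpGs themselves, the level declined and the change grew with distance. Members with the nearest listed CpG at 151 to 175 bp had 62.2% in Neg and gained 10.1 points, those at 301 to 500 bp 53.5% and 13.3 points, and those at 501 to 1000 bp 49.4% and 15.7 points. The 73 members more than 1000 bp from any other listed CpG had 41.1% and gained 19.7 points. Since the Neg levels differ, the unmethylated remainder varied less. It shrank to 0.733 of its Neg size at 151 to 175 bp, 0.714 at 301 to 500 bp, 0.689 at 501 to 1000 bp and 0.665 beyond. There was no step at the limit of the rule. Members at 151 to 155 bp went from 62.3% to 72.0%, and CpGs just outside, whose only neighbour lay at 146 to 150 bp, from 62.2% to 71.8%.

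Single isolated CpGs were mostly higher or equal in dCas9+3A+HOXA5. The level was higher at 49.2% of them, lower at 21.6% and equal at 29.3%. Fully methylated members went from 25.0% to 47.6%, while fully unmethylated members went from 16.1% to 14.7%. Since such shares depend on depth, each CpG was also reduced to the expected outcome of 5 reads drawn without replacement. Then 29.03% of isolated CpGs in Neg and 49.6% in dCas9+3A+HOXA5 had all 5 reads methylated, 18.5% and 15.5% had none, and 52.5% and 34.9% had a mixture. Crowded CpGs also had more fully methylated outcomes in dCas9+3A+HOXA5, 52.2% against 41.2%, but at the same time more with no methylated read, 20.04% against 18.4%. Mixtures were therefore fewer in dCas9+3A+HOXA5 in both classes.

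**Figure D2:**
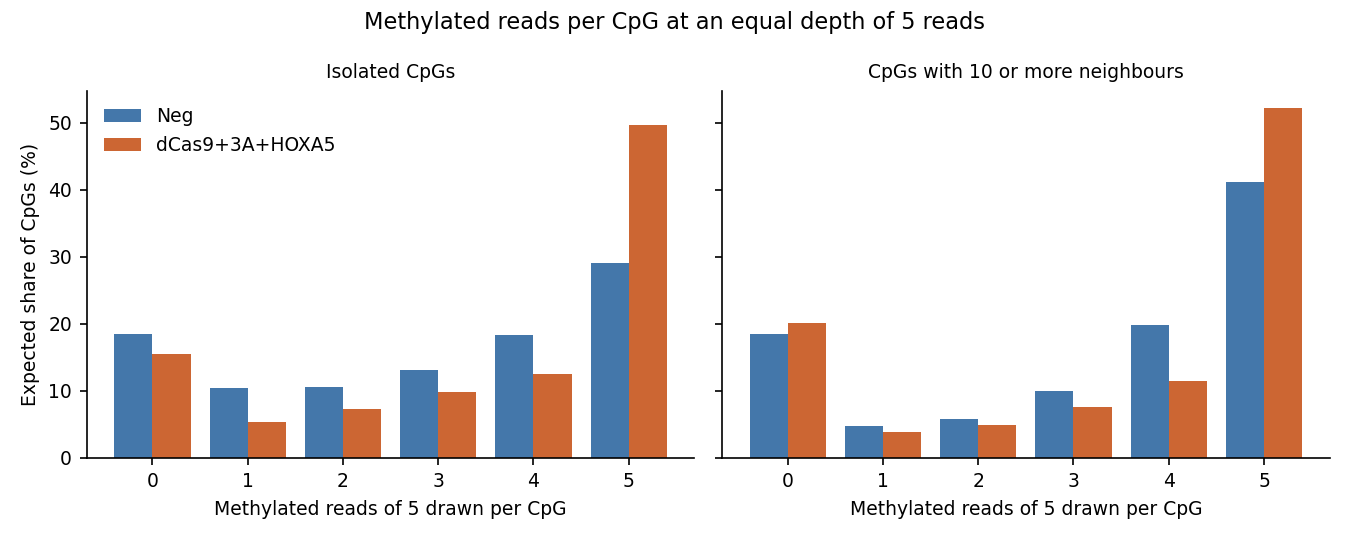
Expected share of CpGs in percent (vertical axis) by the number of methylated reads among 5 drawn per CpG (horizontal axis), for isolated CpGs (left) and crowded CpGs (right), with 1 bar per library. In isolated CpGs the share with 5 methylated reads rises from 29.03% in Neg to 49.6%, and every other outcome is less frequent in dCas9+3A+HOXA5.

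Isolated CpGs of intermediate level in Neg were often fully or nearly fully methylated in dCas9+3A+HOXA5. Of 1001 isolated CpGs with 10 or more reads in both libraries, 210 were under 20% in Neg, 422 between 20 and 80% and 369 over 80%. Over 80% in dCas9+3A+HOXA5 were 23 of the first set, 221 of the second and 320 of the third. The first set averaged 7.04% and 28.2% in the 2 libraries, with 112 still under 20%. The second went from 52.2% to 71.1%, and the third from 93.6% to 91.7%. The sets were cut by their Neg level, so these values are a description without a test.

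The bases next to the CpG separated isolated CpGs strongly. The 13005 members with A or T on both sides had 47.7% (SD 36.7) in Neg and 63.5% (SD 38.9) in dCas9+3A+HOXA5, a gain of 15.8 points. The 18644 with 1 of each gained 10.6 points, from 61.0% to 71.6%. The 7465 with C or G on both sides had 69.8% (SD 33.8) and 76.2% (SD 34.5), a gain of 6.37 points. The difference in change between the outer sets was 9.40 points (95% interval over CpGs 8.53 to 10.3). Unmethylated in every Neg read were 22.9% of the members with A or T on both sides and 9.38% of those with C or G. In crowded CpGs the same sets gained 3.23, 2.51 and 1.68 points as means over CpGs, a smaller spread, but 13.5, 5.01 and 2.06 points summed over reads, against 16.2, 11.5 and 6.66 points for isolated CpGs by reads. With 1 to 3 neighbours the means gained 12.2, 7.19 and 4.01 points.

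Taken by both flanking bases, with a context and its reverse complement counted together, tCGa was lowest and gCGc highest in both libraries. tCGa went from 40.8% to 58.0% (17.2 points, n = 2058), and gCGc from 77.3% to 81.7% (4.37 points, n = 1019). The 3 contexts with A or T on both sides held the lowest 3 Neg levels, with 48.3% for aCGa and 49.9% for aCGt beside tCGa. Membership of the mixed class hid a further difference: cCGa had 54.4% in Neg and gCGa 68.8%, and they gained 12.7 and 7.70 points. Within the class flanked by C or G, cCGg stood at 57.7% and cCGc at 74.0% in Neg. Contexts with a G before the CpG or a C after it, which is the same read on the other strand, had higher levels than those with a C before or a G after where the other flank was the same.

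Position in genes also divided the isolated CpGs. Introns of protein-coding genes held 16522 of them, which went from 66.4% to 75.8%, a gain of 9.38 points. Between genes lay 14776, with 50.8% and 64.3%, a gain of 13.5 points. Another 6495 lay in other genes, mostly non-coding, with 51.2% and 65.1%. Coding exons held 320 at 76.3% and 80.6%, and untranslated exons 920 at 76.7% and 81.6%. Within 500 bp of a protein-coding gene start there were 81 isolated CpGs, at 63.0% (SD 36.3) and 63.4% (SD 38.9), while the 43546 crowded CpGs at gene starts averaged 21.6% and 22.02%. The gain at these 81 members was 0.435 points with an interval of -7.01 to 7.88, which lies below the gains in introns, in other genes and between genes and overlaps those in exons.

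A region was described by the Neg level of its CpGs with 4 to 9 neighbours in windows of 100 kb, a class that shares no CpG with the isolated one. Such a level was available for 24412 isolated CpGs, and over these its Pearson correlation with the Neg level of the single isolated CpG was 0.411 (the points share the Neg library, and members of a window share its level). In windows under 50% the isolated CpGs went from 21.6% to 27.4%, a gain of 5.79 points. They gained 11.1 points in windows of 50 to 60%, 12.8 points at 60 to 70%, 10.7 points at 70 to 80% and 8.63 points at 80% or more. From the lowest to the highest windows, their unmethylated remainder shrank to 0.926, 0.793, 0.685, 0.662 and 0.670 of its Neg size. As means over CpGs, crowded CpGs moved the other way in the low windows, by -2.45 points under 50% and -1.75 points at 50 to 60%, and gained 2.61 points in windows of 80% or more. Summed over reads the direction turned in the windows under 50%, where crowded CpGs went from 25.3% to 29.5% (4.15 points), isolated CpGs from 23.1% to 27.2% (4.13 points), and CpGs with 1 to 3 neighbours from 43.96% to 38.2%, against a gain of 2.20 points as a mean over CpGs. At 50 to 60% crowded CpGs changed by -1.03 points over reads. Such sums weight each CpG by its own depth in each library, so they do not give the change of a typical CpG. Of the CpGs with 1 to 3 neighbours in windows under 50%, 4663 were higher and 4567 lower. In the windows under 50%, isolated CpGs with no methylated read went from 47.0% to 54.4%, and those at a level of 100% from 3.49% to 11.3%. With 5 reads drawn per CpG these shares were 53.8% and 56.9%, and 4.60% and 11.9%. The flank difference was present in both kinds of region, with 9.89 points (6.66 to 13.1) in windows under 60% and 8.61 points (7.50 to 9.73) in the others.

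**Figure D3:**
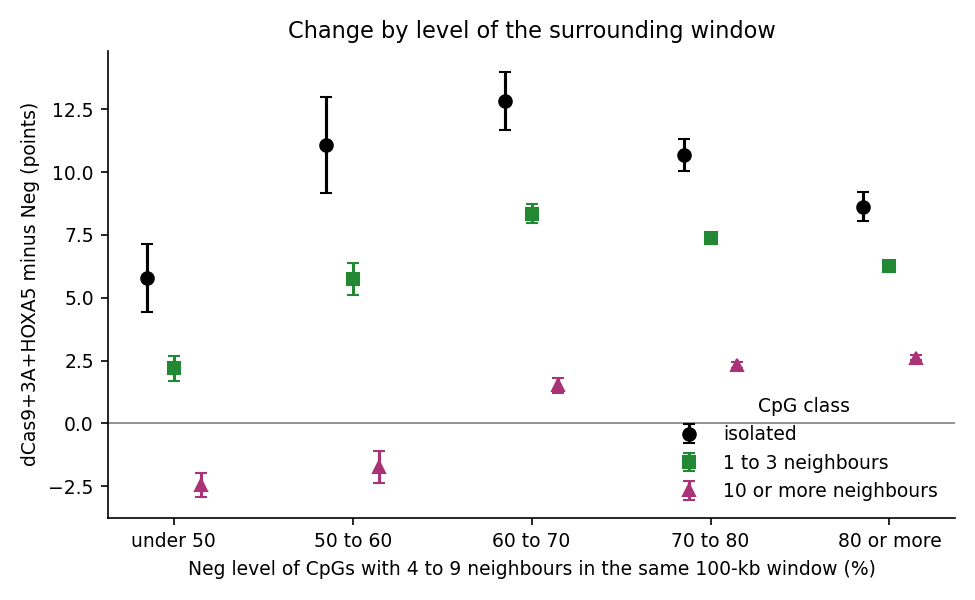
Difference between dCas9+3A+HOXA5 and Neg in percentage points (vertical axis) by the Neg level of CpGs with 4 to 9 neighbours in the same 100-kb window (horizontal axis), for isolated CpGs (circles), CpGs with 1 to 3 neighbours (squares) and crowded CpGs (triangles), with 95% intervals over CpGs. Isolated CpGs gain in every kind of window, from 5.79 to 12.8 points, while crowded CpGs lose in windows under 60% as means over CpGs. Summed over reads, which weights CpGs by depth, the share of crowded CpGs rises and that of CpGs with 1 to 3 neighbours falls under 50%.

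To hold the domain fixed, isolated and crowded CpGs of the same window were compared. In 1135 windows of 100 kb with at least 5 of each, the isolated CpGs changed by more in 806 (71.0%) and by less in 329, with a median difference of 7.56 points. The median change over these windows was 10.8 points for isolated and 3.17 points for crowded CpGs. Against CpGs with 1 to 3 neighbours, the isolated ones changed by more in 954 of 1634 windows (58.4%), with a median difference of 2.41 points. The Neg level of isolated CpGs was the lower one in 54.5% of the windows shared with crowded CpGs.

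Isolated CpGs were higher in dCas9+3A+HOXA5 on 22 of 22 chromosomes, and their change exceeded that of crowded CpGs and that of CpGs with 1 to 3 neighbours on all 22. The change ranged from 5.31 points on chromosome 19, where 497 members went from 48.1% to 53.4%, to 16.5 points on chromosome 13, where 2835 members went from 63.7% to 80.2%. For crowded CpGs it ranged from 0.749 to 4.78 points. Without chromosomes 1, 6 and 13, which gave the most members, isolated CpGs still changed by 10.8 points.

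**Figure D4:**
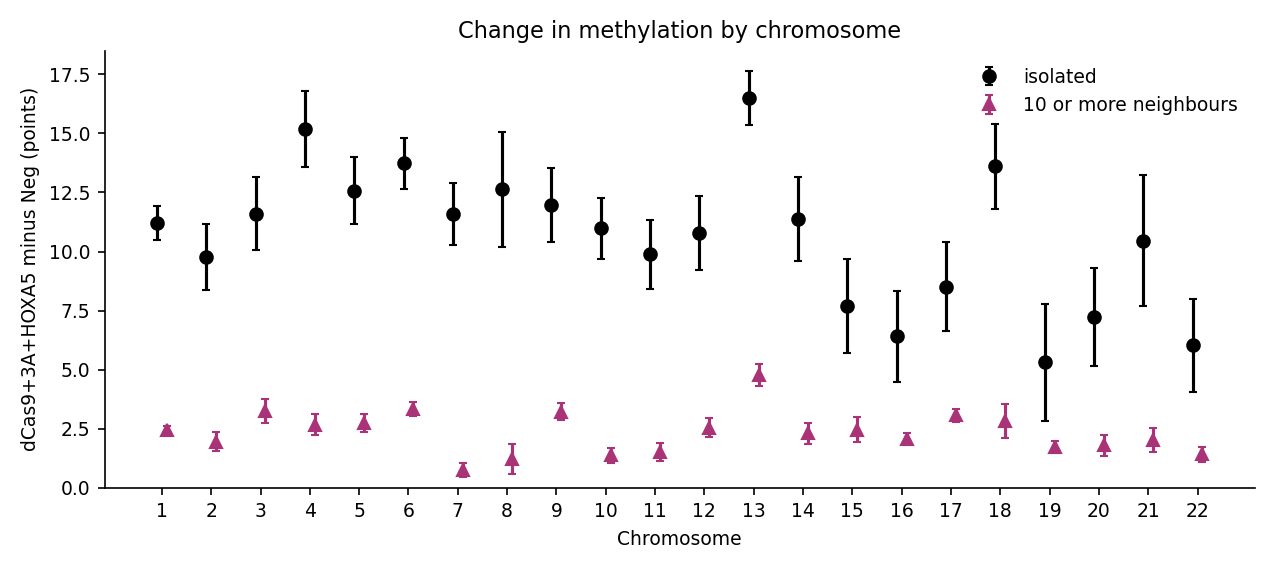
Difference between dCas9+3A+HOXA5 and Neg in percentage points (vertical axis) on each of 22 chromosomes for isolated CpGs (circles) and crowded CpGs (triangles), with 95% intervals over CpGs. Circles lie between 5.31 and 16.5 points and triangles between 0.749 and 4.78 points, and the circle is above the triangle on every chromosome.

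Few single isolated CpGs could be called at this depth. A CpG was called where Fisher's exact test on its reads gave a Benjamini-Hochberg adjusted p under 0.01 over all CpGs and the level differed by more than 20 points. Only 978 isolated CpGs had enough reads for a complete change to reach that threshold. The test called 3 isolated CpGs higher, among 89 CpGs of all classes (0.00699% of those tested), and 0 lower, among 2 (0.000157%). At an unadjusted p under 0.05 there were 3204 higher and 606 lower isolated CpGs, which is 8.19% and 1.55%, against 3.56% and 1.86% of all CpGs tested. With CpGs over 50 reads left out none of the 3 was called, although the 3 themselves had fewer reads, since the adjustment then ran over another set. The windows of 61 bases show the 3 called CpGs, and then the 2 CpGs with the lowest p among those that were lower, for contrast.
Higher, intron of LINC01135, chr1:59326542-59326602: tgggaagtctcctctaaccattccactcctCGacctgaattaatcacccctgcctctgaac
Higher, between genes, chr13:87742057-87742117: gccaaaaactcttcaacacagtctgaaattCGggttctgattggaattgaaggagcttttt
Higher, intron of PDE4DIP, chr1:145009365-145009425: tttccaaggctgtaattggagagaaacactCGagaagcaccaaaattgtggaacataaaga
Lower, between genes, chr11:113862292-113862352: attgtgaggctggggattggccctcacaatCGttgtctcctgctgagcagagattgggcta
Lower, between genes, chr22:37135769-37135829: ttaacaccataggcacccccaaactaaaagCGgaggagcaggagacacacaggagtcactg
All 5 windows held no other CG. The CpG in LINC01135, a long non-coding RNA gene, was methylated in 0 of 14 reads in Neg and 13 of 13 in dCas9+3A+HOXA5 (adjusted p = 0.000611, Fisher's exact test). The CpG on chromosome 13, whose nearest protein-coding gene SLITRK5 lay 581539 bp away, went from 0 of 9 to 18 of 18 reads (adjusted p = 0.00219, Fisher's exact test). The CpG in PDE4DIP, which encodes a protein that anchors a phosphodiesterase, went from 1 of 15 to 12 of 12 reads (adjusted p = 0.00631, Fisher's exact test). Reads there may also come from the overlapping pseudogene PDE4DIPP2. In the 100-kb regions of the 3 CpGs, CpGs with 4 to 9 neighbours averaged 71.3%, 79.2% and 75.9% in Neg. A called gain at this depth requires a low Neg level, so the position of the 3 CpGs below their regions follows from their selection. Both lower CpGs went from 7 of 7 to 0 of 9 reads, which did not pass the test (adjusted p = 0.15 for each, Fisher's exact test). The next 2 gains, 981405 bp from the nearest protein-coding gene SPRY2 and in STXBP5-AS1, had adjusted p of 0.0154 and 0.0197, and the losses in SLIT3 and ASAP2 had adjusted p of 0.169 and 0.192 (Fisher's exact test).

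Around the HOXA5 guide no isolated CpG was deep enough to be a member. The guide's protospacer lies on the plus strand at chr7:27182884-27182903, in the HOXA cluster of homeobox genes, where CpGs are dense. Within 50 kb, 18 of 3581 listed CpGs were isolated and 0 of them had 5 reads in both libraries. Of the 18, 11 had reads in both, and summed over these 19 of 38 reads (Wilson 95% interval 34.8 to 65.2) were methylated in Neg and 13 of 23 (36.8 to 74.4) in dCas9+3A+HOXA5. A difference was not detectable at this depth (p = 0.792, Fisher's exact test). KLF4, DNMT3A and the HOXA genes held no member. BACH2, a transcription factor gene of lymphoid cells, held 5, with a mean of 71.0% (SD 32.9, 24 of 34 reads) in Neg and 90.5% (SD 17.4, 31 of 34 reads) in dCas9+3A+HOXA5, and 2 of the 5 were higher and 2 lower.

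Gene bodies gather enough isolated CpGs for a test on pooled reads. That test treats reads as independent, although levels differ between the CpGs of a gene. It also compares with no change, while isolated CpGs as a class gained 11.5 points. A low p therefore does not mean a gain beyond that of the class. Of 6723 protein-coding genes with a member, 274 held at least 10. The same thresholds were used, with the test on reads summed over a gene's isolated CpGs and the difference as the mean over those CpGs. On this basis 46 genes were called higher (16.8% of the 274) and 0 lower (0%). At an unadjusted p under 0.05 there were 123 higher and 3 lower (Fisher's exact test). The median change over the 274 genes was 10.2 points, with 229 positive. The 46 genes had a median of 50.1% in Neg and 81.8% in dCas9+3A+HOXA5. In the 45 of them that held crowded CpGs, those changed by less than the isolated ones in all 45, with a median of 4.39 points, although the genes were chosen on the isolated change.

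The largest gain was in GRM8, which encodes a metabotropic glutamate receptor, at chr7:126078652-126893147. Its 11 isolated CpGs went from 10.1% (SD 13.3 over CpGs) to 77.1% (SD 35.4), with 6 of 68 reads methylated in Neg and 53 of 68 in dCas9+3A+HOXA5 (adjusted p = 5.01e-15, Fisher's exact test), and 9 of the 11 were higher. The 8 crowded CpGs of GRM8 went from 37.2% to 45.0%. GRM8 thus held isolated CpGs below its crowded ones in Neg and above them in dCas9+3A+HOXA5.

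The next gains were between 35.7 and 44.5 points. EPM2A, which encodes the glycogen phosphatase laforin, went from 44.5% to 89.1%, with all 11 of its CpGs higher (adjusted p = 5.31e-08, Fisher's exact test). MROH9 went from 10.7% to 53.8% over 10 CpGs, and held no crowded CpG. NOL4 went from 49.0% to 90.5% over 15 CpGs, beside 30 crowded CpGs at 30.4% and 33.8%. TNNI3K, a cardiac kinase gene, went from 15.7% to 52.5% over 17 CpGs, and its crowded CpGs also gained, by 17.3 points. FPGT-TNNI3K overlaps it and was counted as a separate call on nearly the same CpGs. PTGFR, a prostaglandin receptor gene, went from 45.9% to 82.4%, while its 10 crowded CpGs fell by 28.5 points. SORCS1, a sorting receptor gene, went from 51.3% to 87.5%, and HS3ST5, which encodes a heparan sulfate sulfotransferase, from 53.6% to 89.3%.

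The genes with the most isolated CpGs are long and were all higher by their reads. Their counts depend on depth as well as length. DAB1 lies on chromosome 1, and GPC5, GPC6 and PCDH9 lie on chromosome 13. There 4.43% and 3.77% of listed isolated CpGs reached 5 reads in both libraries, against 2.04% over chromosomes 1 to 22. DAB1, an adaptor of reelin signalling, held 122, at 58.6% (SD 33.5) in Neg and 78.6% (SD 31.1) in dCas9+3A+HOXA5. Its change of 19.96 points as a mean over CpGs lay just under the limit of 20 (adjusted p = 9.52e-21, Fisher's exact test). With neighbours counted in the reference genome it was 21.6 points and called. GPC5 and GPC6, neighbouring glypican genes on chromosome 13, held 100 and 76. GPC5 gained 20.6 points from 62.1% and was called, and GPC6 gained 12.8 points from 74.6%, under the limit of 20. PCDH9, a protocadherin, held 115 and gained 11.1 points from 77.3%, or 7.04 points over its CpGs with at least 10 reads. CNTNAP2, a neurexin family member at chr7:145813094-148118090, held 58, which went from 33.4% (127 of 386 reads) to 61.8% (238 of 391 reads), with 44 higher and 8 lower (adjusted p = 3.84e-13, Fisher's exact test). The 148 crowded CpGs of CNTNAP2 went from 54.3% to 61.9%.

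Another set of genes had mostly unmethylated isolated CpGs in both libraries. Of the 274 genes, 26 were under 20% in Neg, and 17 were under 20% in both libraries. They were picked by this level, so their levels and the contrast with their crowded CpGs are a description. Crowded CpGs as a class averaged 66.8% in Neg and 69.0% in dCas9+3A+HOXA5, so that contrast follows largely from the selection. NTRK3, a neurotrophin receptor gene at chr15:88402982-88800022, had 1 methylated read of 97 in Neg and 0 of 88 in dCas9+3A+HOXA5, which allows a share of up to 3.41%, over 14 isolated CpGs, while its 21 crowded CpGs stood at 54.4% and 56.5%. DPP6, which encodes an auxiliary subunit of potassium channels, had 8.87% and 6.69% over 31 isolated CpGs, and 53.3% and 52.8% over 243 crowded CpGs. The other 15 include the adhesion genes CNTN5, NTM and OPCML, the synaptic scaffold gene DLG2, and the splicing factor gene RBFOX1. DLG2 had 12.9% and 13.97% over 25 isolated CpGs, a change of 1.04 points that became -1.34 points with neighbours counted in the reference genome. In each of the 17 genes the crowded CpGs were above the isolated ones in both libraries. CNTNAP5 was among them: 8 of 153 reads at its 24 isolated CpGs were methylated in Neg and 0 of 174 in dCas9+3A+HOXA5, which allows a share of up to 1.72%. Its change of -4.86 points was under the limit of 20, with an adjusted p of 0.00835 (Fisher's exact test).

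**Figure D5:**
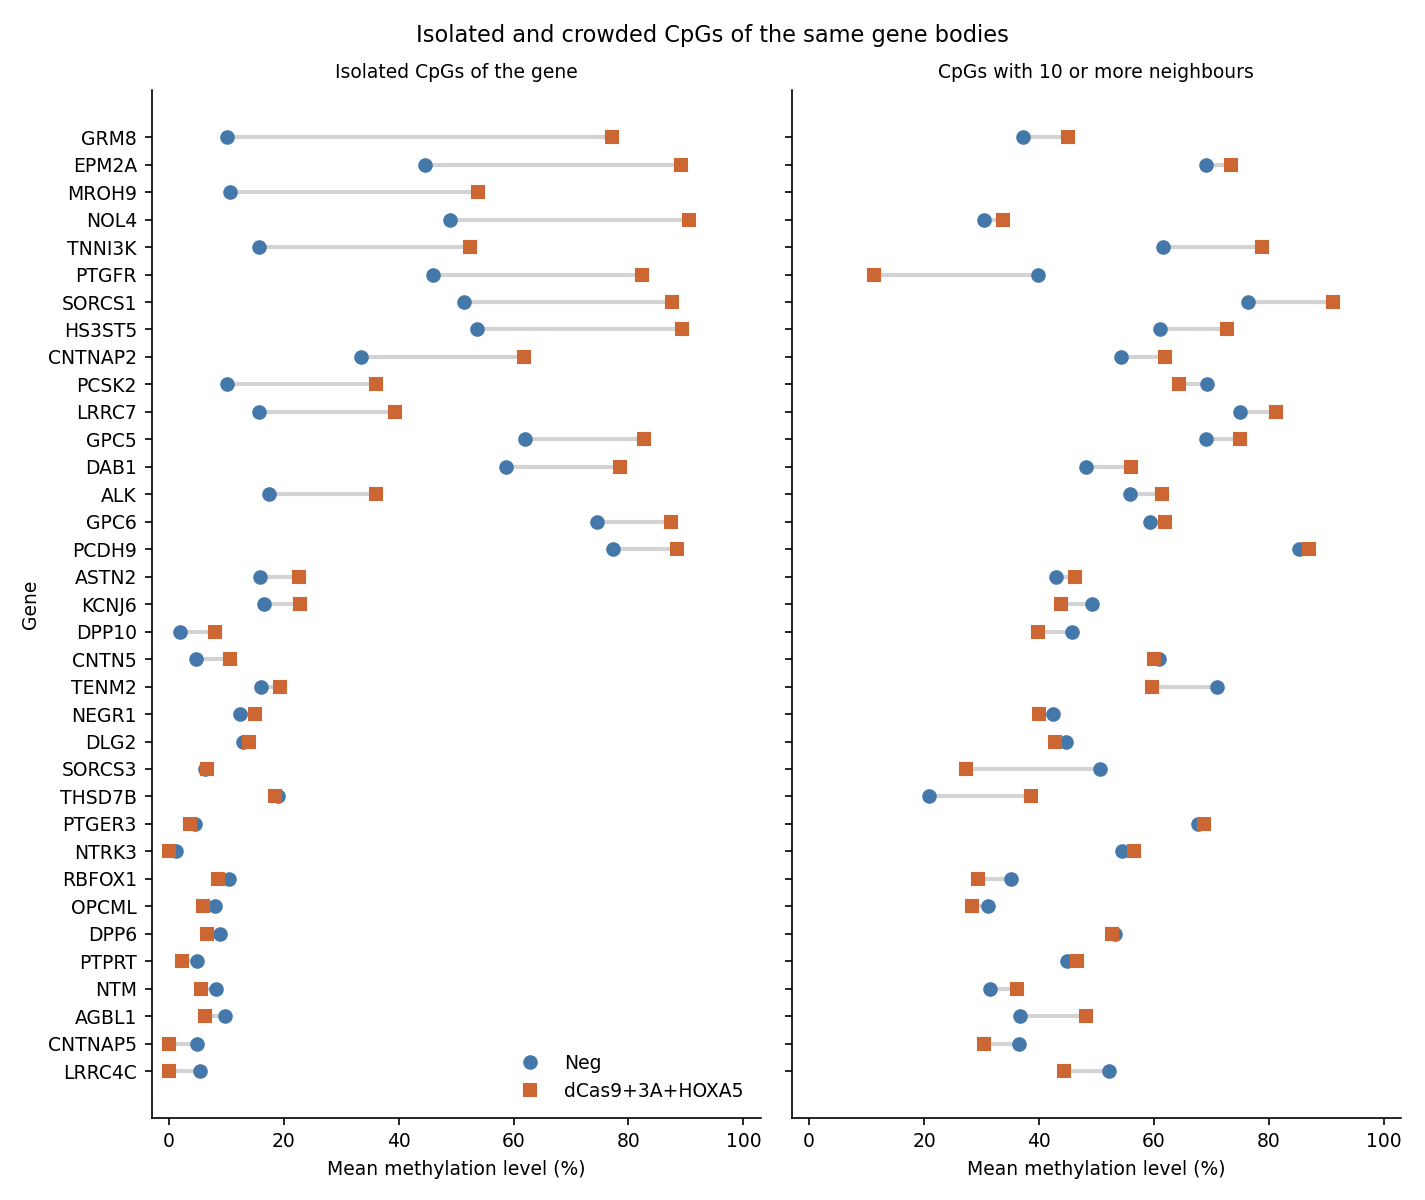
Mean methylation level in percent (horizontal axis) in Neg (circles) and dCas9+3A+HOXA5 (squares) of the isolated CpGs (left) and the crowded CpGs (right) of the same gene, for the genes with the largest gains, those with the most isolated CpGs and those under 20% in Neg, ordered by the change of the isolated CpGs. GRM8 runs from 10.1% to 77.1% on the left and from 37.2% to 45.0% on the right, and NTRK3 lies at 1.19% and 0% on the left and at 54.4% and 56.5% on the right. MROH9 has no crowded CpG. Genes with the largest gains and those under 20% in Neg were picked on their isolated CpGs, so the contrast between the panels partly follows from that choice.

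A list of 20 long genes, chosen by symbol for synaptic adhesion but also holding scaffold and catenin genes, held 280 isolated CpGs. These CpGs went from 31.9% to 45.8%, below the 58.3% and 69.8% of all isolated CpGs. Of the 11 genes tested, 4 were called higher, against 16.8% of all tested genes: CTNNA3, a catenin gene (34.5 points), PCDH15, a protocadherin gene (29.6 points), CNTNAP2, and MAGI2, a scaffold gene (26.6 points). The other 7 ranged from -4.86 to 10.4 points. Olfactory receptor genes, which encode odorant sensors, held 25 isolated CpGs at 13.3% and 22.1%, with an interval of the change of -0.578 to 18.2 points. Zinc finger genes held 222 at 61.1% and 66.6%. Cytosolic ribosomal protein genes held 17 at 79.4% and 75.1%, with an interval of the change of -11.0 to 2.61 points. HOX genes held 3 and clustered protocadherin genes 2, too few to describe.

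Few members shared their exact surrounding bases with another member. Repeats with diverged copies, or with copies that are not members, were not counted. Of the 39114, 705 (1.80%) had a centred run of 30 bases in common with at least 1 other member, and these fell on 194 sequences, the most frequent of which occurred 42 times. They went from 51.5% to 62.9%, a change of 11.4 points, and the others from 58.4% to 69.9%, a change of 11.5 points. Only 64 members had more than 50 reads in a library, and leaving them out kept the change at 11.5 points.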

How the data were processed

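Methylation was measured by whole-genome bisulfite sequencing of 2 HEK293T samples, grouped by title. Per the study and the submitters' processing notes, the authors aligned trimmed reads to hg19 (BSMAP 2.90) and called CpGs with both strands combined. Duplicate treatment: not given in the sources used here. Deposited files give, per the file headers, the count of C reads, the count of C or T reads, an estimated count (C or T reads corrected for variants by the opposite strand), and a fraction (C count over estimated count) that served as the level, in percent. The study states a minimum of 5 reads, but the files list shallower CpGs, so it was applied here. CpGs were grouped by listed positions within 150 bp. Sequence came from GRCh37 and genes from GENCODE release 44 lifted to it. Reads were compared by two-sided Fisher's exact tests (scipy 1.17.1) with Benjamini-Hochberg adjustment. Intervals are Wilson intervals for reads and normal ones over CpGs, at 95%. The first cover counting error only, the second the spread over CpGs and reads, and neither covers differences between cultures. The gene test was checked on simulated data. Reads there were drawn independently and unchanged genes had equal levels, so the check covers neither a shared shift nor differences between cultures. Genes and CpGs were named by rule: 5 gains and 5 losses among single CpGs, the 3 most isolated, members within 50 kb of the guide, the 8 largest gains and losses among called genes, the 5 genes with most members, KLF4, BACH2, DNMT3A, the HOXA genes and 6 gene lists. Some items that this rule picks are not reported here. Genes under 20% in Neg were picked after their values were seen. The isolated CpGs, lists and tests were chosen with earlier results of these data known. Alternatives to the minimum, the neighbour distance, the level, the windows and the thresholds were run.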

Additional observations from a re-analysis of the deposited data

How the results depend on the processing

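Isolated CpGs gained in each alternative that gave their change, by 10.5 to 13.8 points, and by more than crowded CpGs and those with 1 to 3 neighbours in each alternative that compared them over all chromosomes used. Within windows under 50% in Neg, summed reads gave crowded CpGs 4.15 and isolated ones 4.13 points. No library could be left out, since each group held 1. No paired analysis was possible because the labels give no replicate numbers and each group held 1 library. With a minimum of 10 reads the excess over crowded CpGs was 9.75 points, the flank difference 10.6 points, 11 single CpGs were called higher, and 0 genes, as only 3 could be tested. With 3 reads the Neg level was 55.7%, the change 12.1 and the excess 9.82 points. Summed reads gave 57.5%, 12.0 and 4.87 points. A distance of 100 bp gave 60.3% and 10.5 points, and one of 300 bp 52.6%, 13.8 points, 10.9 points over crowded CpGs and 3.01 over CpGs with 1 to 3 neighbours. The Neg level was 57.9% by C over C or T counts and 56.5% with chromosomes X and Y, which added 2827 members. At an adjusted p under 0.05, 13 single CpGs were called higher, and 0 with at most 50 reads. Genes with at least 20 isolated CpGs gave 11 calls among 62 tested. Isolated CpGs changed by more than crowded ones in 75.7% of 1000-kb windows, in 76.9% of 100-kb windows with 10 CpGs of each class, and by more than CpGs with 1 to 3 neighbours in 58.4%. With reference neighbours DLG2 reversed to -1.34 points and DAB1 was called, at 21.6 points, while MROH9, PCDH15 and NTM fell under 10 isolated CpGs and were not tested. Alternatives chosen after seeing the data left out chromosomes 1, 6 and 13 (Neg 56.6%, change 10.8, excess 8.72 and flank difference 8.34 points), recurrent sequences, or crowded CpGs near gene starts. The causes of these shifts were not tested. Of the other values, 45 on classes, calls and windows moved by less than their limits. OPCML changed by -3.75 points with reference neighbours. Depth limits all single CpGs.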
